A study of Homo sapiens with 14 samples.

Results

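The 32 genes described here encode the machinery that detects and repairs damaged DNA: 13 act in homologous recombination, 7 in the Fanconi anemia pathway, 2 in mismatch repair, 5 are the checkpoint kinases and an activator of theirs, 3 form the MRN complex and 2 repair single-strand breaks. A gene counted as measured where at least 1 probe set was annotated with that gene and with no other. This held for 29 of the 32 genes through 43 probe sets, out of 11963 genes and 19070 probe sets of this kind in all. BRCA2, FANCA and UBE2T were not analysed here. Where a gene had several probe sets, its value is their mean.

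The cells were RS4;11, an established human line of B-cell precursor acute lymphoblastic leukemia with a rearranged KMT2A gene, so each value belongs to 1 line. The 14 arrays comprise 4 of untreated cells and 5 each from cells that had spent 8 h or 24 h in 10 nM dexamethasone, a synthetic glucocorticoid that activates the glucocorticoid receptor (GR). All groups had been moved to charcoal-dextran treated serum beforehand, per the study's methods. Untreated cells collected at 8 h or 24 h were not analysed here, so dexamethasone and time in culture cannot be told apart. Each array has a code in the labels that does not speak of runs. Arrays of different groups with a matching code were read here as 1 run, which gives 5 runs, of which runs 1 and 2 share day 1 and the others have a day each. Run 5 has no untreated array. Nothing says whether replicates came from separate cultures, and a p-value here covers only the spread from array to array, which is possibly technical.

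Values are log2 expression values, and a difference of 1 is a 2-fold change. Array medians ranged from 6.03 to 6.11, so the arrays were on a common scale, and their number limits the precision. The mean of 9 B lineage markers on an array was between 8.66 and 9.41, led by VPREB1 at 12.9 and IGLL1 at 12.4, with DNTT lowest at 5.17. The means of markers of T and NK cells, of monocytes and granulocytes, and of erythroid cells and platelets did not exceed 4.97, 4.05 and 4.97 on any array, although NKG7 (8.59) and GP9 (6.95) were brighter than the rest of their lists.

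Double-strand breaks are bound by the MRN complex, which activates the kinase ATM and, through it, CHEK2. Single-stranded DNA at stalled replication forks activates ATR with the help of TOPBP1, and ATR in turn activates CHEK1. Homologous recombination then copies the lost sequence from the sister chromatid, the Fanconi anemia pathway opens crosslinks between the strands, and mismatch repair removes errors of replication. Many of these genes are known to be transcribed most in S phase, when sister chromatids are made.

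At 24 h, 24 of the 29 measured genes (82.8%) were lower than in untreated cells in limma at a Benjamini-Hochberg adjusted p below 0.05, as were 20.9% of all genes tested. A fall of at least 2-fold was called for 13 of them (44.8%), against 3.48% of all genes. ATM, the apical kinase of the double-strand break checkpoint, and MUS81, a nuclease that cuts joined DNA molecules, were the 2 genes called higher, as were 19.5% of all genes. BARD1, RAD50 and PARP1 did not pass. The 24 h arrays lay wholly below the untreated arrays for 22 of the 29 genes and wholly above them for 2, against 18.1% and 17.2% of all genes. The median log2 fold change of the 29 genes was −0.87, and that of all genes −0.02.

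At 8 h the change was small and touched fewer genes. BRCA1, BLM, RMI1, FANCE, FANCF, MSH6, CHEK1, CHEK2 and TOPBP1 were lower, which is 9 of 29 (31.0%) beside 11.0% of all genes. BARD1 and MUS81 were higher, beside 8.69% of all genes, and 18 genes did not pass. The 8 h arrays lay wholly below the untreated ones for 8 genes and above them for 1, beside 10.4% and 7.86% of all genes. No gene of the 29 had fallen 2-fold, beside 0.568% of all genes, and the median was −0.12. Between 8 h and 24 h, 23 of the 29 genes fell (79.3%, beside 13.7% of all genes), 10 of them by at least 2-fold (beside 1.35%), and none was called higher by limma (beside 14.6%), with ATM the 1 gene higher at an unadjusted p under 0.05. ATM, FANCF, MSH6, MUS81, PARP1 and RAD50 did not pass in that step. The 24 h arrays lay wholly below the 8 h arrays for 21 genes and above them for 0, beside 10.9% and 11.5% of all genes. These 3 comparisons share arrays. The mean of the 29 genes on an array was 8.87 to 9.0 without treatment, 8.74 to 8.87 at 8 h and 7.88 to 8.02 at 24 h.

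**Figure D1:**
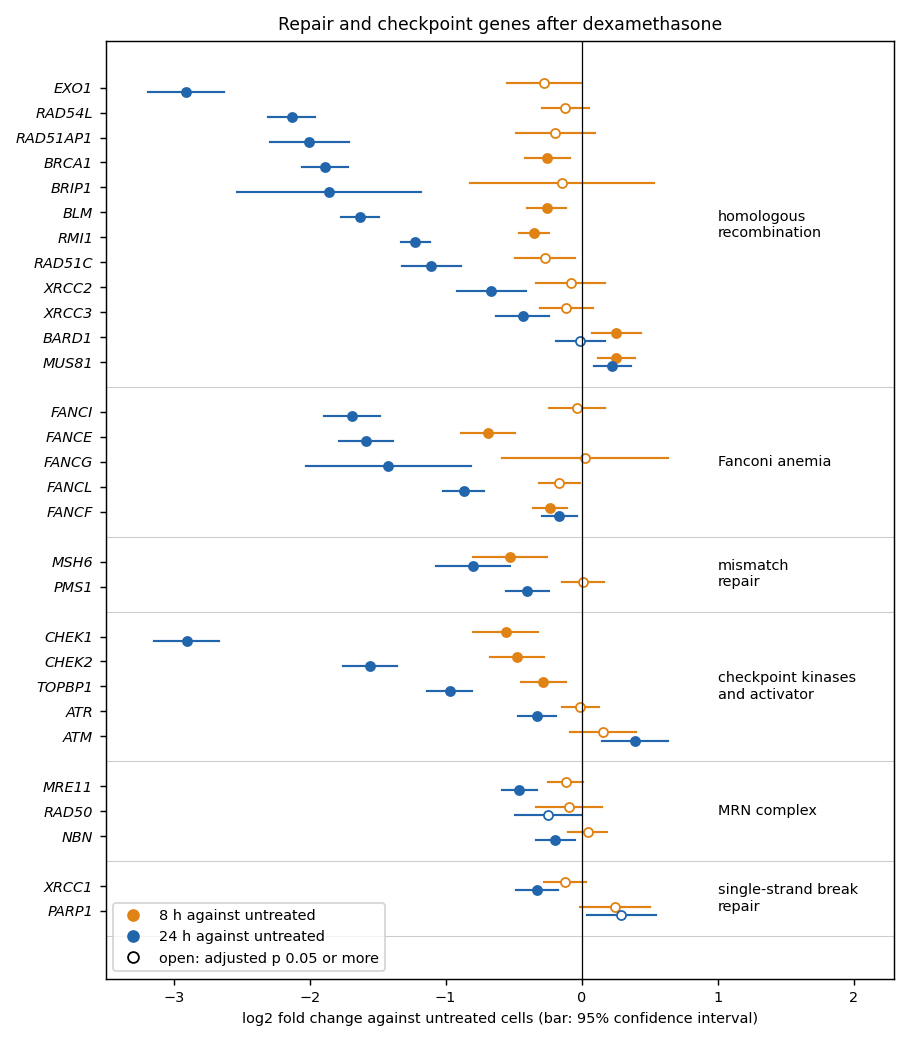
Log2 fold changes of the 29 measured genes at 8 h (orange) and 24 h (blue) against untreated cells (x axis), ordered within 6 subgroups by the change at 24 h, with 95% confidence intervals from limma; filled points passed an adjusted p of 0.05. The points at 24 h run from −2.91 for EXO1 and CHEK1 to 0.39 for ATM, and no point at 8 h is below −0.69.

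The measured genes, those that fell and those that did not, can be set beside the DNA in front of them. RefSeq promoters (build GRCh38.p14, 250 bases before to 50 bases after a transcript start) were at hand for 27 of the 29 genes, in 38 promoters, and not for FANCI and NBN. They were searched on both strands for an E2F site, the element of the factors that drive S phase genes, spelled TTTCCCGC, TTTCGCGC, TTTGCCGC or TTTGGCGC. It was found in front of EXO1, MSH6, TOPBP1, XRCC2 and RMI1, which is 18.5% of the 27 genes and 6.08% of the 9563 tested genes with a promoter. The CCAAT box, spelled CCAAT, stood in front of 16 genes (59.3%, against 44.2%), and the cell cycle homology region, spelled TTTGAA or TTCGAA, in front of 3 (11.1%, against 17.2%). The E2F sites began at base 5 of the transcript in EXO1, at base 4 in MSH6 and at base 22 in XRCC2, and 7 and 32 bases before it in TOPBP1 and RMI1. All 5 genes were lower at 24 h, but so were 24 of all 29 measured genes (82.8%). CHEK1, RAD54L and RAD51AP1, which fell by more than 2 log2 units, had no such match in their windows. A match is a description of letters and no measure of binding. The 5 promoters with an E2F site and, for comparison, those of the 2 effector kinases are shown 5′ to 3′ along the transcribed strand, with E2F sites and CCAAT boxes of either strand in capitals. They lie at chr1:241847954-241848253 (plus strand, EXO1), chr2:47782895-47783194 (plus, MSH6), chr3:133661892-133662191 (minus, TOPBP1), chr7:152676092-152676391 (minus, XRCC2), chr9:83980555-83980854 (plus, RMI1), chr11:125626106-125626405 (plus, CHEK1) and chr22:28741771-28742070 (minus, CHEK2). EXO1, MSH6, RMI1 and CHEK1 have further starts in the table, whose promoters held no E2F site.
EXO1: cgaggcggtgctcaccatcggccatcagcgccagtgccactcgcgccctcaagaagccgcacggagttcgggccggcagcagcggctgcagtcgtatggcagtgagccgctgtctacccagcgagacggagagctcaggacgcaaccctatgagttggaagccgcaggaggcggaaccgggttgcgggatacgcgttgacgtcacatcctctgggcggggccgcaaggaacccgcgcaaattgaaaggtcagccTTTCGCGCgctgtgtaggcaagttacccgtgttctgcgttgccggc
MSH6: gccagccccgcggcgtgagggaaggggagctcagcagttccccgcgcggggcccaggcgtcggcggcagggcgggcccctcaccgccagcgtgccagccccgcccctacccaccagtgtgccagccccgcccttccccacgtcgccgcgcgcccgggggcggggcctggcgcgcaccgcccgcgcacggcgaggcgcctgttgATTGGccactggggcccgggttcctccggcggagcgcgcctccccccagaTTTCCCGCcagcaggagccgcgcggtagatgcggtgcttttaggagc
TOPBP1: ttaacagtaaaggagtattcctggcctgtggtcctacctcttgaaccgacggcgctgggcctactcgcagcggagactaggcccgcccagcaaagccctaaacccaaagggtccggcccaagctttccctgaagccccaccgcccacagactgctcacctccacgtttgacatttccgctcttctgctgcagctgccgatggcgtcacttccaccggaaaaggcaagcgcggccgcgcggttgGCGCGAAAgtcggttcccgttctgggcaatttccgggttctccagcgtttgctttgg
XRCC2: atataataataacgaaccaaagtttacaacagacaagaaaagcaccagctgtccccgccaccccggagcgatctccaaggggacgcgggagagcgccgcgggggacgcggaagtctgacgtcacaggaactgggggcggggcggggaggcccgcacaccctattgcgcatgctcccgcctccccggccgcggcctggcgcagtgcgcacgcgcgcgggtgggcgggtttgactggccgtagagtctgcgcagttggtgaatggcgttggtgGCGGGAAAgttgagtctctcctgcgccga
RMI1: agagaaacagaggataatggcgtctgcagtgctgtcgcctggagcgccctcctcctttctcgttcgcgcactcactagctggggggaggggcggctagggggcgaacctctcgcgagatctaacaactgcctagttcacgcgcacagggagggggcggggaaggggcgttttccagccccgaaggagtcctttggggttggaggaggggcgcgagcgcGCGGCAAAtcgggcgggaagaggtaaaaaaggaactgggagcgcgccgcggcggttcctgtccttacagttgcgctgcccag
CHEK1: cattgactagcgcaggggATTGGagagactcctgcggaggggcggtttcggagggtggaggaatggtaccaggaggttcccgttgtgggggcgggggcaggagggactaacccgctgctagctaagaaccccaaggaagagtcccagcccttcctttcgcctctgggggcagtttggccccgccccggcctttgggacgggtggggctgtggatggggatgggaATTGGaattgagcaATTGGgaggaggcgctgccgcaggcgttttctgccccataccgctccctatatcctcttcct
CHEK2: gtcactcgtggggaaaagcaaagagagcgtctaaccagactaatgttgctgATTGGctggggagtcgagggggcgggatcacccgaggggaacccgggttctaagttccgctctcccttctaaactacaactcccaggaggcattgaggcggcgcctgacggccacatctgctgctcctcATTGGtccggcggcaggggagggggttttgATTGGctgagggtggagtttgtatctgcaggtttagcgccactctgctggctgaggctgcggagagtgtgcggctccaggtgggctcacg

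Among the checkpoint kinases, both effector kinases fell and the apical kinases moved little. CHEK1, which holds back the cell cycle while replication forks are stalled, had log2 values of 9.47, 9.45, 9.24 and 9.42 in untreated cells. After 8 h it stood at 8.85, 8.86, 8.76, 8.80 and 8.93. The arrays of 24 h had 6.49, 6.15, 6.69, 6.28 and 6.84. No array of one time point overlapped with those of another. The log2 fold change was −0.56 at 8 h (SE 0.11, adjusted p = 0.00198 in limma) and −2.91 at 24 h (SE 0.11, adjusted p = 6.73e-12), a level 7.50-fold lower, and 0.117% of all genes changed by as much or more in that direction. Its 2 probe sets gave −2.82 and −3.00.

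CHEK2, the effector kinase of ATM, had values of 8.66, 8.63, 8.45 and 8.77 before treatment, then of 8.29, 8.13, 7.95, 8.19 and 8.18 after 8 h and of 7.21, 7.24, 6.86, 6.91 and 7.14 after 24 h. It thus also fell at both steps without overlap between groups. The change was −0.48 at 8 h (SE 0.09, adjusted p = 0.00149 in limma) and −1.55 at 24 h (SE 0.09, adjusted p = 1.19e-09). TOPBP1, the activator of ATR, fell by 0.28 at 8 h (SE 0.08, adjusted p = 0.0163 in limma) and by 0.97 at 24 h (SE 0.08, adjusted p = 3.42e-08), from 11.15, 11.16, 10.85 and 10.91 to 10.05, 10.13, 10.12, 9.94 and 9.99. Its call at 8 h ended without untreated replicate 1 or 2 (adjusted p = 0.0636 and 0.0664 in limma).

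ATR, which answers to single-stranded DNA, was at 8.87, 8.86, 9.09 and 9.12 in untreated cells and at 8.65, 8.58, 8.71, 8.69 and 8.66 after 24 h. All 24 h arrays were the lower ones, by 0.33 on average (log2 fold change −0.33, SE 0.07, adjusted p = 6.54e-04 in limma), and nothing was seen at 8 h (−0.01, adjusted p = 0.959). ATM went the other way. It was at 7.91, 7.90, 7.87 and 7.81 untreated, at 7.89, 7.59, 8.20, 8.15 and 8.31 after 8 h, then at 8.23, 8.17, 8.33, 8.40 and 8.20 after 24 h, so every 24 h array was above every untreated array. The rise at 24 h was 0.39 (SE 0.11, adjusted p = 0.0106 in limma) and did not pass within day 1 (0.29, adjusted p = 0.0641). At 8 h the arrays of day 1, replicates 1 and 2, lay at or below the untreated level and those of days 2 to 4 above it. There the change was 0.16 over all arrays (adjusted p = 0.415 in limma), 0.38 within days 2 to 4 (adjusted p = 0.00687) and 0.27 without 8 h replicate 2 (adjusted p = 0.0326). The 3 probe sets of ATM rose by 0.23, 0.46 and 0.49 at 24 h, of which the dimmest did not pass (adjusted p = 0.281 in limma over probe sets).

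**Figure D2:**
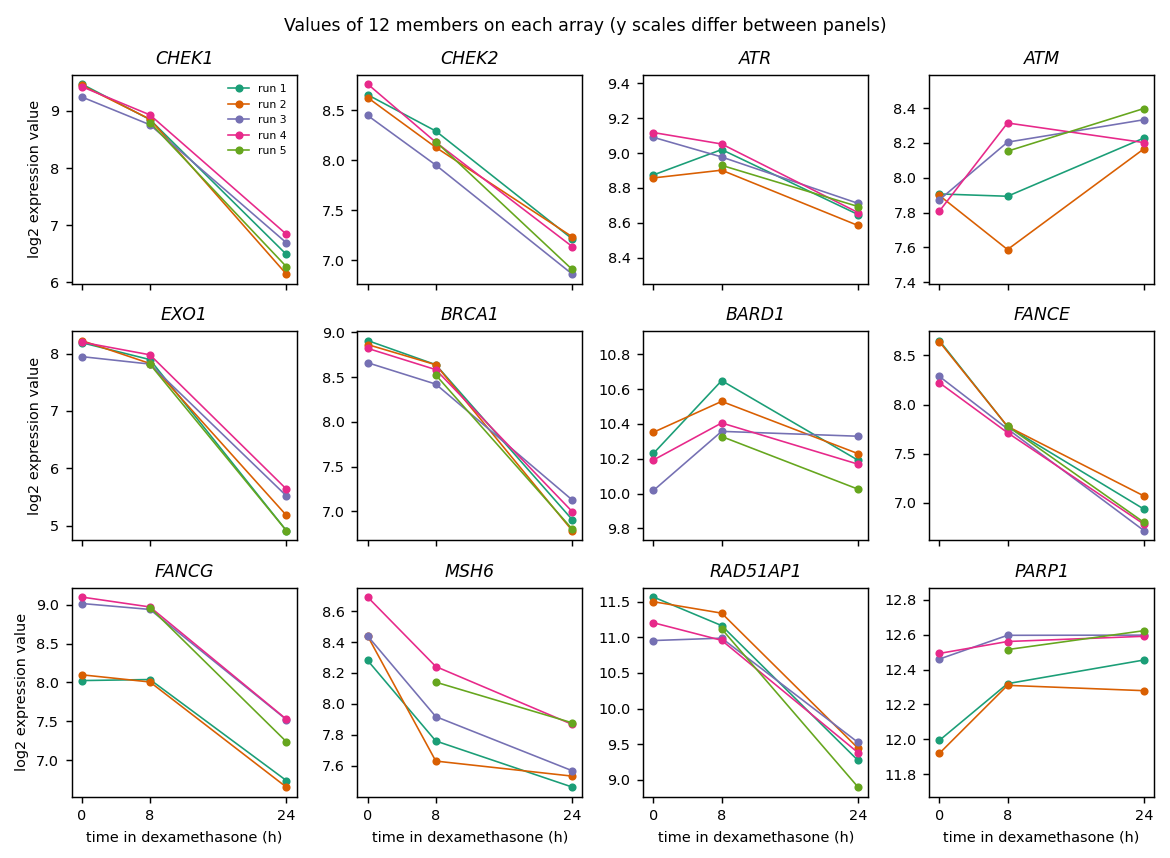
Log2 expression values of 12 of the genes on each array against the time in dexamethasone (0 h is untreated), 1 point per array and 1 line per run, with y scales that differ between panels; run 5 has no untreated array. CHEK1 falls from between 9.24 and 9.47 to between 6.15 and 6.84, BARD1 stays between 10.02 and 10.65, and FANCG and PARP1 differ between runs 1 and 2 and the others.

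In the homologous recombination subgroup 10 of 12 measured genes were lower at 24 h (beside 20.9% of all genes). Of these, 8 fell by at least 2-fold (beside 3.48%), and the subgroup median was −1.43. EXO1, a nuclease that trims the ends of a break and also acts in mismatch repair, had untreated values of 8.19, 8.23, 7.95 and 8.20. After 8 h they were 7.90, 7.83, 7.82, 7.82 and 7.98, then 4.91, 5.18, 5.52, 4.91 and 5.64 at 24 h. Most of the fall came in the later step, with −0.27 at 8 h (SE 0.13, adjusted p = 0.176 in limma) and −2.91 at 24 h (SE 0.13, adjusted p = 3.74e-11). At 8 h it was lower in all 4 runs with an untreated array. It passed with only the 2 groups compared in the model (−0.27, adjusted p = 0.0226 in limma) and within day 1 (−0.35, adjusted p = 0.0452). In all other alternatives, among them the run as a block and each array left out, EXO1 did not pass at 8 h. RAD54L, a motor protein that works in recombination on chromatin, went from 8.97, 9.07, 8.67 and 8.99 to 6.69, 6.75, 6.77, 6.81 and 6.95 at 24 h (−2.13, SE 0.08, adjusted p = 5.13e-12 in limma). RAD51AP1, an accessory protein of recombination, went from 11.56, 11.50, 10.95 and 11.20 to 9.27, 9.44, 9.52, 8.90 and 9.38 (−2.0, SE 0.14, adjusted p = 4.79e-09 in limma). Neither of these passed at 8 h (−0.12 and −0.19).

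The partners of the BRCA1 complex separated. BRCA1, which directs breaks to recombination, stood at 8.91, 8.86, 8.66 and 8.82 in untreated cells and at 6.91, 6.79, 7.13, 6.80 and 7.0 at 24 h. BARD1, without which BRCA1 is unstable as a protein, stood at 10.23, 10.35, 10.02 and 10.19 and, at 24 h, at 10.19, 10.23, 10.33, 10.03 and 10.17. The BRCA1 values of 24 h lie about 2 log2 units below the untreated ones, whereas those of BARD1 lie within the untreated range. The change of BRCA1 at 24 h was −1.89 (SE 0.08, adjusted p = 1.52e-11 in limma), and that of BARD1 was −0.01 (95% confidence interval −0.19 to 0.17, adjusted p = 0.950). BRIP1, the helicase that binds BRCA1, had scattered values of 6.12, 5.87, 6.08 and 6.80 in untreated cells and 3.28, 4.10, 5.05, 4.66 and 4.71 at 24 h, which still did not overlap (−1.86, SE 0.32, adjusted p = 1.59e-04 in limma). The BRIP1 values of 24 h, 4.36 on average, were dim, so the size of its fall is uncertain.

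At 8 h BRCA1 and BARD1 were called in opposite directions, and both calls were weak. In each of the 4 runs with an untreated array, BRCA1 was lower and BARD1 higher. BRCA1 was at 8.64, 8.64, 8.42, 8.52 and 8.58 (−0.25, SE 0.08, adjusted p = 0.0325 in limma), and BARD1 at 10.65, 10.53, 10.36, 10.33 and 10.41 (0.26, SE 0.08, adjusted p = 0.0421). With the run as a block BRCA1 no longer passed (−0.23, adjusted p = 0.0542 in limma), nor without any 1 of untreated replicates 1, 2 or 4 or 8 h replicates 3, 4 or 5 (adjusted p from 0.0529 to 0.104). BARD1 did not pass without any 1 of untreated replicates 1, 3 or 4, 8 h replicates 1, 2 or 5, or 24 h replicates 1, 2 or 5 (adjusted p from 0.0502 to 0.142 in limma). Its fall back from 8 h to 24 h (−0.26, adjusted p = 0.0184) ended without 8 h replicate 1 or 24 h replicate 4 (adjusted p = 0.0536 and 0.0551 in limma).

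BLM, the helicase mutated in Bloom syndrome, and RMI1, a scaffold that joins it in undoing crossed-over DNA, both fell at each step. BLM had values of 10.13, 10.18, 9.98 and 10.16 untreated, then 9.94, 9.94, 9.82, 9.72 and 9.86 after 8 h, then 8.43, 8.52, 8.54, 8.36 and 8.56 after 24 h. RMI1 was the most even gene of the set, at 10.45, 10.48, 10.47 and 10.50, then 10.22, 10.17, 10.06, 10.05 and 10.12, and then 9.25, 9.25, 9.27, 9.23 and 9.25. No groups overlapped for either gene. At 24 h BLM stood at −1.63 (SE 0.07, adjusted p = 1.08e-11 in limma) and RMI1 at −1.22 (SE 0.05, adjusted p = 1.49e-11). At 8 h they stood at −0.26 and −0.35 (adjusted p = 0.0107 and 9.99e-05 in limma). The call of BLM at 8 h did not pass within day 1 (−0.22, adjusted p = 0.0693 in limma) or within days 2 to 4 (−0.27, adjusted p = 0.0505). Both fits hold fewer arrays, and their changes lay close to the −0.26 over all arrays.

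RAD51C, XRCC2 and XRCC3, accessory proteins of recombination that act in complexes with each other and with further proteins, fell less than EXO1, RAD54L and RAD51AP1. RAD51C went from between 8.33 and 8.56 to between 7.20 and 7.56 at 24 h (−1.10, SE 0.10, adjusted p = 1.99e-07 in limma). XRCC2 went from between 7.46 and 7.93 to between 6.62 and 7.26 (−0.66, SE 0.12, adjusted p = 2.42e-04). XRCC3 was dim, at 5.41 to 5.73 in untreated cells and 5.05 to 5.42 at 24 h, so its groups touched (−0.43, SE 0.09, adjusted p = 9.77e-04 in limma, and −0.24 with adjusted p = 0.221 within day 1). At 8 h RAD51C did not pass in the model without runs (−0.27, adjusted p = 0.0809 in limma), but it did in the model blocked by run (−0.24, adjusted p = 0.00472) and without 8 h replicate 1 or 2 (adjusted p = 0.0412 and 0.0325). MUS81 rose early and stayed, from 8.90, 8.89, 8.84 and 8.99 to 9.30, 9.18, 9.03, 9.16 and 9.14 at 8 h and 9.24, 9.19, 9.09, 9.08 and 9.06 at 24 h. Both time points lay wholly above untreated cells (0.26 and 0.23, SE 0.06, adjusted p = 0.00808 and 0.00819 in limma). Within days 2 to 4, MUS81 did not pass at either time (0.19 and 0.16, adjusted p = 0.0778 and 0.0962).

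All 5 measured genes of the Fanconi anemia subgroup were lower at 24 h (beside 20.9% of all genes). Of these, 3 fell by at least 2-fold (beside 3.48%), and the subgroup median was −1.42. FANCE, a subunit of the core complex that binds FANCD2, had the largest fall of all 29 genes at 8 h. It was at 8.65, 8.64, 8.29 and 8.22 untreated, at 7.78, 7.78, 7.75, 7.78 and 7.71 after 8 h, then at 6.94, 7.07, 6.72, 6.80 and 6.78 after 24 h. The groups were separate at each step, with −0.69 at 8 h (SE 0.09, adjusted p = 5.39e-05 in limma) and −1.59 at 24 h (SE 0.09, adjusted p = 9.76e-10). FANCI, which is ubiquitinated together with FANCD2 at a crosslink, kept its level to 8 h (−0.03, adjusted p = 0.879) and then fell from 11.02, 11.02, 10.80 and 10.98 in untreated cells to 9.08, 9.16, 9.58, 9.07 and 9.46 (−1.69, SE 0.10, adjusted p = 7.50e-10 in limma).

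FANCG, another core subunit, differed between the runs of day 1 and the others in every group. Its untreated values were 8.02 and 8.10 in runs 1 and 2 and 9.01 and 9.10 in runs 3 and 4. At 24 h they were 6.74 and 6.65 in runs 1 and 2 and 7.52, 7.24 and 7.53 in the others, so the drop within each day was alike while the groups were wide (−1.42, SE 0.29, adjusted p = 6.63e-04 in limma). FANCL, the ubiquitin ligase of the core complex, fell from between 9.66 and 9.93 to between 8.88 and 8.99 (−0.87, SE 0.07, adjusted p = 4.44e-08 in limma). FANCF, an adaptor of the core complex, was lower by 0.23 at 8 h (log2 fold change −0.23, SE 0.06, adjusted p = 0.0110 in limma), and its call at 24 h was marginal (−0.16, adjusted p = 0.0392). The latter ended without any 1 of untreated replicates 2, 3 or 4 or 24 h replicates 1 or 3 (adjusted p from 0.0666 to 0.126 in limma).

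Of the mismatch repair genes, MSH6, which recognises mispaired bases, had most of its fall by 8 h. Its mean over 3 probe sets was 8.28, 8.44, 8.44 and 8.69 untreated, then 7.76, 7.63, 7.92, 8.14 and 8.24 after 8 h, then 7.46, 7.53, 7.57, 7.88 and 7.87 after 24 h. The 8 h arrays lay below all untreated arrays but overlapped with the 24 h arrays. The change was −0.52 at 8 h (SE 0.13, adjusted p = 0.00760 in limma), −0.80 at 24 h (SE 0.13, adjusted p = 7.95e-05) and −0.28 between them (adjusted p = 0.108). The last step passed once the run entered the model as a block (adjusted p = 0.00148 in limma) and without 8 h replicate 2 (−0.35, adjusted p = 0.0375). PMS1, the other mismatch repair gene of the set, did not change detectably at 8 h (0.01, adjusted p = 0.968) and was lower at 24 h, from 9.69, 9.69, 9.54 and 9.54 to 9.27, 9.31, 9.11, 9.26 and 9.13 (−0.40, SE 0.07, adjusted p = 3.07e-04 in limma). The median of both genes at 24 h was −0.60, against −0.97 for the 5 checkpoint genes.

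The MRN complex, the sensor of double-strand breaks, had a median of −0.25 at 24 h. MRE11, its nuclease, fell by 0.46 (log2 fold change −0.46, SE 0.06, adjusted p = 1.08e-05 in limma). This is the mean of a bright probe set that fell by 0.84 from 9.39 to 8.55 and of a dim one near 3.16 that did not pass (−0.08, adjusted p = 0.556). At 8 h the bright probe set alone passed (−0.26, adjusted p = 0.0270 in limma after dim probe sets were left out), and the mean of both did not (−0.12, adjusted p = 0.224). NBN, which brings ATM to the complex, was at 9.49, 9.50, 9.61 and 9.68 in untreated cells and at 9.39, 9.41, 9.43, 9.17 and 9.48 at 24 h (−0.19, SE 0.07, adjusted p = 0.0316 in limma). The gap between the groups was small, and the call ended without untreated replicate 3 or 4 or 24 h replicate 4 (adjusted p from 0.0794 to 0.107 in limma). It also ended with the variance filter of the methods (−0.09, adjusted p = 0.477 in limma) and with the brightest probe set (−0.09, adjusted p = 0.537). The same held within day 1 (−0.09, adjusted p = 0.342 in limma) and with only the 2 groups compared (adjusted p = 0.0613). RAD50, the ATPase that tethers the ends, did not pass (−0.25, SE 0.11, adjusted p = 0.103 in limma), with values of 8.65, 8.68, 8.38 and 8.41 against 8.52, 8.46, 8.14, 8.21 and 8.06. It was lower in all 4 runs with an untreated array and passed in the model blocked by run (−0.23, adjusted p = 0.00253 in limma) and without 24 h replicate 1 (−0.31, adjusted p = 0.0454). Its step from 8 h to 24 h (−0.16) likewise passed only in a blocked model (adjusted p = 0.0197 in limma with blocks by run).

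In single-strand break repair the scaffold was called lower at 24 h, and the rise of the sensor did not pass in the model without runs. PARP1, which marks a nick with poly(ADP-ribose), was at 11.99 and 11.92 in runs 1 and 2 and at 12.46 and 12.49 in runs 3 and 4 of the untreated cells. At 24 h it was at 12.46, 12.28, 12.60, 12.62 and 12.59. It was higher in each of the 4 runs, though the groups overlapped across days (0.29, SE 0.12, adjusted p = 0.0648 in limma). With the run as a block it passed at 24 h (0.27, adjusted p = 0.00399 in limma) and at 8 h (0.22, adjusted p = 0.0232), and at 24 h also without any 1 of untreated replicates 3 or 4 or 24 h replicate 2 (adjusted p from 0.0191 to 0.0315). XRCC1, the scaffold that PARP1 brings to a nick, was lower at 24 h, from 7.56, 7.59, 7.34 and 7.52 to 7.08, 7.24, 7.27, 7.12 and 7.16 (−0.33, SE 0.07, adjusted p = 0.00143 in limma). Within days 2 to 4 XRCC1 did not pass (−0.25, adjusted p = 0.0513 in limma). Its step from 8 h to 24 h (−0.21, adjusted p = 0.0336) ended without any 1 of 8 h replicates 4 or 5 or 24 h replicates 1, 4 or 5 (adjusted p from 0.0638 to 0.0953 in limma).

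Whether genes that work as a pair changed unequally was asked with the log2 ratio of both genes within an array, which needs no scaling between arrays. Of 13 pairs, 11 had both genes measured, and several share a gene. The pairs were chosen with earlier results of these data known. Their ratios use the same values as the changes above and are no separate evidence. At 24 h the ratio differed from untreated cells in 9 of the 11 pairs in an exact two-sided permutation test over the arrays (p = 0.0159 for 8 of them, the smallest that 4 against 5 arrays allow; adjusted p = 0.0218 over the 11 pairs). This test leaves out the runs. Differences within runs gave an exact two-sided p of 0.125 at the least over 4 runs, so 0 of the 11 pairs passed that way, although 9 pairs moved one way in all 4 runs. CHEK1 lost 2.58 log2 units against ATR (SE 0.16), CHEK2 lost 1.95 against ATM (SE 0.14), and CHEK1 lost 1.35 against CHEK2 (SE 0.17). These are log2 differences of −2.58, −1.95 and −1.35, and on each of the 5 arrays of 24 h the ratio was below all untreated arrays. The ratio of BRCA1 to BARD1 fell from between −1.49 and −1.32 to between −3.44 and −3.17, a difference of −1.88 (SE 0.06). The ratio of ATR to ATM changed by −0.72 (SE 0.09), that of RAD51C to XRCC3 by −0.67 (SE 0.11), that of BLM to RMI1 by −0.41 (SE 0.05) and that of NBN to MRE11 by 0.27 (SE 0.08).

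The ratio of PARP1 to XRCC1 rose by 0.62 (SE 0.21, exact permutation p = 0.0317, adjusted p = 0.0388). It lost the call without any 1 of untreated replicates 1, 2 or 4 or 24 h replicates 1, 3, 4 or 5 (adjusted p = 0.0698 or 0.0873 in the exact test). For BRCA1 and BRIP1 no change of the ratio was detected within a wide spread (−0.03, SE 0.35, exact permutation p = 0.968). Their differences within runs went from −0.50 to 0.84. RAD50 against MRE11 did not pass (0.21, exact permutation p = 0.159), but did once the dim probe set of MRE11 was left out (0.59, adjusted p = 0.0194 in the exact test). At 8 h none of the 11 pairs passed after adjustment. BRCA1 to BARD1 (−0.51), CHEK1 to ATR (−0.55) and CHEK2 to ATM (−0.64) had the smallest possible exact permutation p of 0.0159 (adjusted p = 0.0582), and BLM to RMI1 (0.09) had p = 0.0476. From 8 h to 24 h the ratio changed in 9 of 11 pairs, the exceptions again being BRCA1 to BRIP1 and RAD50 to MRE11. The ratio of RAD50 to MRE11 was nonetheless higher at 24 h in all 5 runs, by 0.19 on average, and within runs 0 of the 11 pairs passed, since 5 runs allow no exact p below 0.0625. In that step PARP1 to XRCC1 ended without any 1 of 8 h replicates 1, 2 or 5 or 24 h replicates 1, 3, 4 or 5, and NBN to MRE11 without any 1 of 8 h replicates 1, 3, 4 or 5 or 24 h replicates 2, 3 or 5 (adjusted p = 0.0582 each in the exact permutation test).

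**Figure D3:**
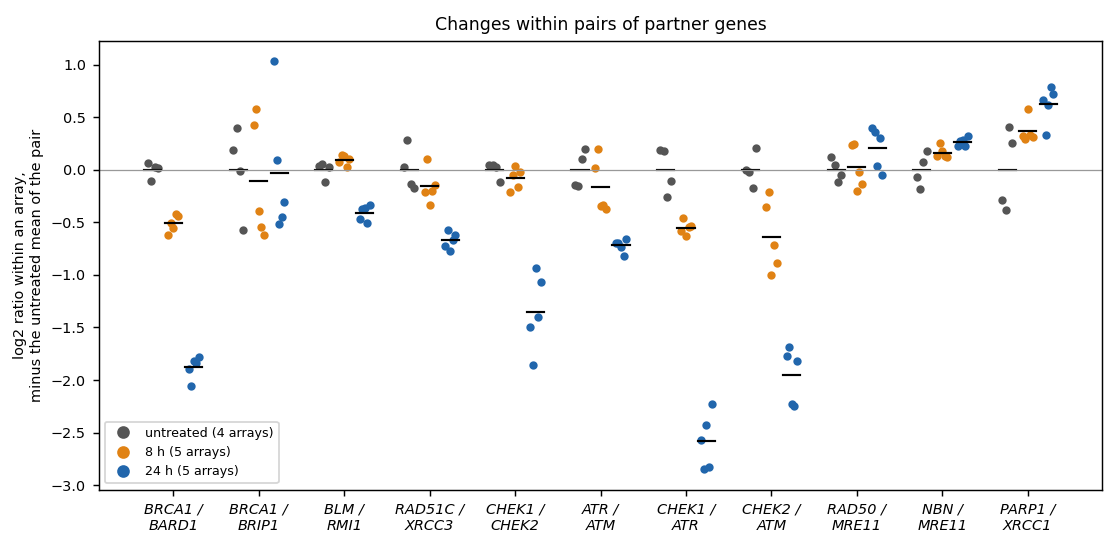
Log2 ratio of each of 11 pairs of partner genes within an array, set to 0 at the pair's untreated mean (y axis), 1 point per array by group, with bars at the group means. At 24 h the pairs run from −2.58 for CHEK1 against ATR to 0.62 for PARP1 against XRCC1, and BRCA1 against BRIP1 lies at −0.03 with the widest spread.

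The mean over probe sets hid little for most genes. Of the 10 genes with more than 1 probe set, BRCA1 (−2.05 and −1.73), RAD51C (−1.05 and −1.16), FANCI (−1.60 and −1.78) and ATR (−0.38 and −0.27) had probe sets that passed alike in direction at 24 h. The probe sets of RAD50 were close in size (−0.25 and −0.25), of which the dimmer did not pass (adjusted p = 0.333 in limma). Of the 4 probe sets of NBN, those at −0.20 and −0.28 passed and those at −0.19 and −0.09 did not. For MSH6 the bright probe sets, at 12.21 and 9.70 in untreated cells, fell by 0.91 and 1.13, and a dim one near 3.48 by 0.36. The single probe set of XRCC2 and 1 probe set each of BRCA1, ATM and NBN are of the kind whose probes may also bind other transcripts.

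**Figure D4:**
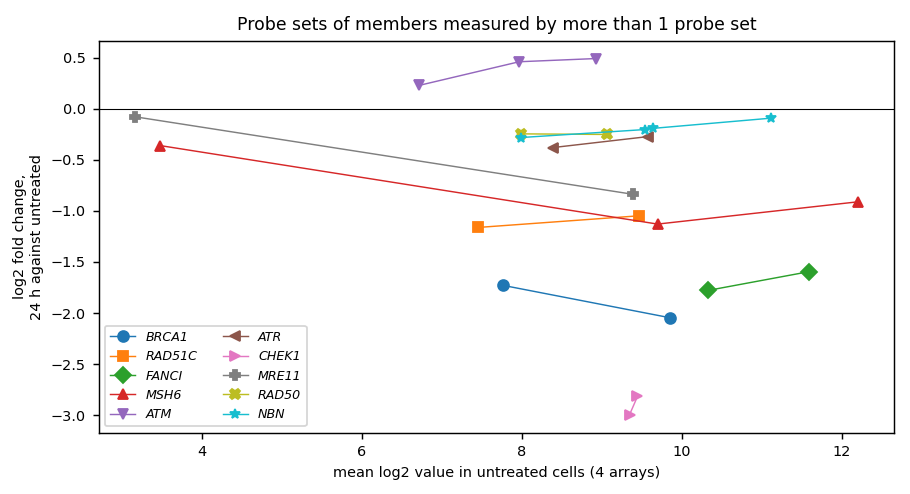
Log2 fold change at 24 h against untreated cells (y axis) of each probe set against its mean log2 value in untreated cells (x axis), for the 10 genes with more than 1 probe set, joined by lines. The probe sets of MRE11 and MSH6 near 3.2 and 3.5 changed less than the brighter probe sets of the same genes.

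Further genes of the same pathways were counted for comparison, from lists written with earlier results of these data known. The shares of all genes to set beside these counts at 24 h are again 20.9% lower and 19.5% higher. Of 11 other genes of homologous recombination, 9 were lower at 24 h (median −0.57), among them RAD54B (−2.03), a relative of RAD54L, PALB2 (−1.38), which joins BRCA1 to BRCA2, and TOP3A (−0.60), the topoisomerase that works with BLM and RMI1. RAD52 (0.12) and SEM1 (−0.22) did not pass. Of 6 other Fanconi anemia genes, USP1 (−1.01), which removes ubiquitin from FANCD2, FANCC (−0.79), FAAP24 (−0.52) and FAAP100 (−0.50) were lower, the nuclease gene FAN1 (0.64) was higher, and WDR48 (0.14) did not pass. MSH3 (−0.16) and MLH3 (−0.17), the 2 other mismatch repair genes measured, did not pass (adjusted p = 0.0606 and 0.144 in limma).

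Among 15 other checkpoint genes, 8 were lower, 1 higher and 6 did not pass (median −0.30). TIPIN (−2.82), which protects the fork, CDC25A (−2.20), the phosphatase that CHEK1 opposes, and RAD1 (−1.11), part of the clamp that activates ATR, had the smallest adjusted p, and CDC25B (0.23) was the one that was higher. Base excision and single-strand break repair had 11 of 16 genes lower (median −0.61), among them UNG (−3.33), which removes uracil, and FEN1 (−2.91) and LIG1 (−2.02), which also process replicating DNA. SMUG1 (0.19) and MPG (0.35), other glycosylases, were higher, and TDG, OGG1 and POLB did not pass.

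Non-homologous end joining, which needs no sister chromatid, had 4 of 6 genes lower (median −0.32): PRKDC (−1.13), XRCC5 (−0.54), XRCC6 (−0.32) and XRCC4 (−0.31). LIG4 (0.90), the ligase of this pathway, was higher, and DCLRE1C did not pass. In nucleotide excision repair 5 of 13 genes were lower (beside 20.9% of all genes), namely DDB2 (−1.15), ERCC1 (−0.46), ERCC8 (−0.33), RAD23B (−0.27) and DDB1 (−0.25). ERCC6 (0.59) and ERCC5 (0.44) were higher (2 of 13, no larger a share than the 19.5% of all genes), and the median of −0.07 was near that of all genes. Of 17 target genes of p53, the factor that ATM and CHEK2 activate, SESN1 (3.29), ZMAT3 (1.72) and TP53I3 (0.26) were higher. AEN (−0.69), CDKN1A (−0.44), FAS (−0.28) and PPM1D (−0.19) were lower, and 10 did not pass, with a median of −0.01. The 3 of 17 higher and 4 of 17 lower are near the shares of all genes, 19.5% and 20.9%. SESN1 is also a known glucocorticoid target.

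Genes of S phase moved with the repair genes and farther. Of 33 genes of DNA replication that are in none of the lists above, 32 were lower at 24 h (beside 20.9% of all genes), with a median of −2.07. GINS2 (−4.35), CDC6 (−3.81) and MCM4 (−3.40) had the smallest adjusted p, and CCNE2 (0.05) did not pass. Their mean on an array was 9.57 to 9.77 untreated, 9.29 to 9.39 after 8 h and 7.50 to 7.64 after 24 h. At 8 h 21 of them were lower (beside 11.0% of all genes), 2 were higher (beside 8.69%) and 10 did not pass, with a median of −0.44. Of 17 genes of G2 and mitosis only AURKB (−0.71), CCNA2 (−0.54), BIRC5 (−0.45), KIF11 (−0.37) and CDK1 (−0.36) were lower at 24 h (5 of 17, beside 20.9% of all genes), and the median was −0.11. Their array means were between 9.68 and 10.04, then between 9.76 and 10.09, and then between 9.43 and 9.76. At 8 h all 17 had a log2 fold change above 0 (median 0.17). Of these 3 were called higher, beside 8.69% of all genes, and none was called lower. From 8 h to 24 h all 17 changes were below 0 (median −0.30), and 11 were called lower, beside 13.7% of all genes. In these bulk samples fewer cells in S phase and less RNA of a gene per cell cannot be told apart, and the part of S phase in the changes of the repair genes was not tested.

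**Figure D5:**
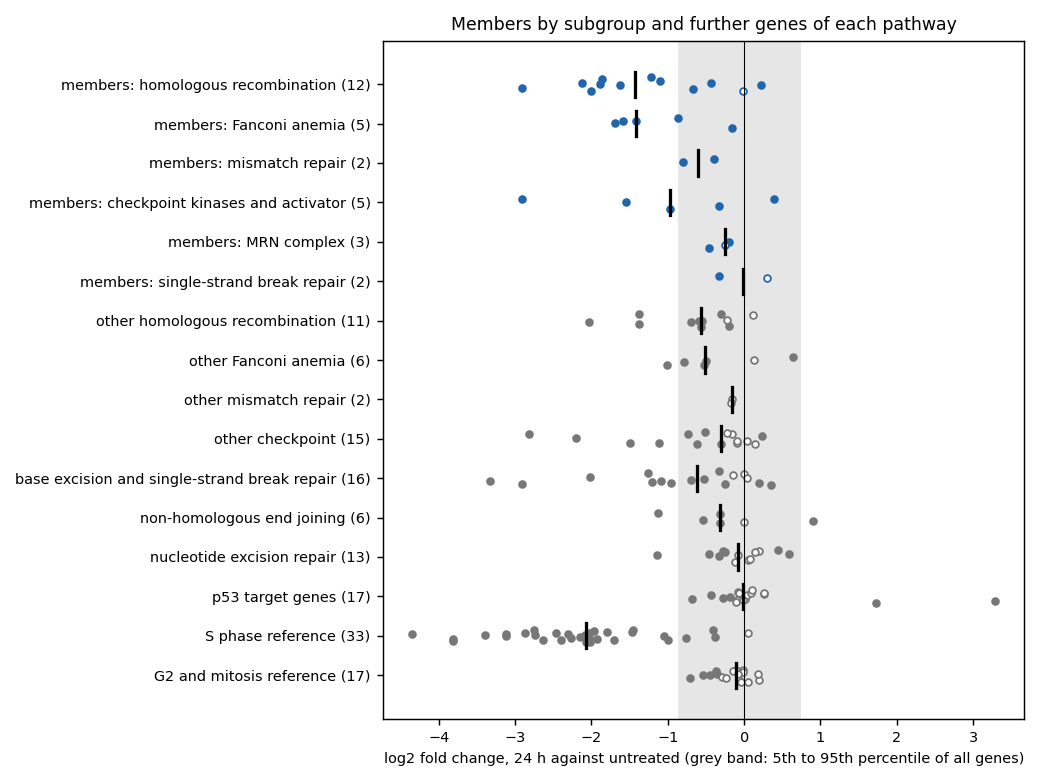
Log2 fold changes at 24 h against untreated cells (x axis) for the 29 genes by subgroup (blue) and for further genes of 10 lists (grey), 1 point per gene, with open points for genes that did not pass, bars at medians, the number of genes in brackets and a grey band over the middle of all genes. Medians run from −2.07 for S phase genes through −1.43 for homologous recombination to −0.01 for p53 targets.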

How the data were processed

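RNA of RS4;11 cells was hybridised to arrays of the type hgu133a2, named as Agilent in the study's methods although the labels give an Affymetrix protocol and the affy tool. After dropping 1 untreated array, the authors corrected the background and normalized with RMA (version not given in the sources used here), and the deposited table gives 22277 probe sets on 14 arrays as log2 values, with no count of molecules behind them. The variance filter of the methods was run here as an alternative. Of the probe sets, 19070 were annotated with exactly 1 gene, 1043 with several and 2164 with none listed here. Symbols were updated through gene IDs, and probe sets of a gene were averaged.

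Genes were compared with limma 3.58.1 (lmFit and eBayes, R 4.3.3) over all 14 arrays and 3 groups without a block or filter, with Benjamini-Hochberg adjustment over 11963 genes and a threshold of 0.05. Ratios within an array were compared with exact permutation tests in Python 3.11.15. The limma calculation was tested on simulated data in which arrays were independent. That simulation does not show how the calls fare where arrays of a run correlate. It did not include the permutation tests. Groups came from the sample titles, and runs and days were read from array codes in the labels. Residuals of arrays of the same run correlated with r between 0.299 and 0.537 in all 13 pairs. Pairs of different runs ranged from −0.469 to 0.473, with 20 of 52 above 0.1. Those with the same title number lay between 0.218 and 0.537. This check therefore cannot tell pairing by run from a split between day 1 and the later days. The genes, pathway lists and pairs were chosen with earlier results of these data known. The text names all 29 measured genes and, of each further list, the 3 with the smallest adjusted p at 24 h. It names every gene where a reported count at 24 h is 5 or fewer. Promoter sequences are from RefSeq, build GRCh38.p14. Alternatives were the variance filter, a filter on dim probe sets, the brightest probe set per gene, cyclic loess, equal array medians, the run or title number as a block, single days, only the groups compared, stricter thresholds and each array left out.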

Additional observations from a re-analysis of the deposited data

Results flagged for a closer look

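A few values stood apart from the other arrays of their group by a test of the gap against the range. Of 87 groups of arrays, 3 for each of the 29 genes, 5 held such a value, and chance gives about 1 in 20, or 4.35. EXO1 was at 7.95 in untreated replicate 3, where the others lay between 8.19 and 8.23. FANCI was at 10.8 on the same array, with the others between 10.98 and 11.02. XRCC3 was at 5.74 in 8 h replicate 1, with the others between 5.41 and 5.45, and FANCF at 8.56 in 8 h replicate 5, with the others between 8.41 and 8.44. MRE11 was at 5.66 in 24 h replicate 4, with the others between 5.85 and 5.87. What set these values apart was not tested.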

How the results depend on the processing

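At 24 h the count of lower genes among the 29 stayed between 21 and 25 (24 reported) over the alternatives other than the 2-fold threshold, and was 22 to 24 with each array left out. It was 13 at 2-fold, where 788 of all genes were called in either direction, 416 of them lower. Genes called higher at 24 h numbered 1 with the variance filter, 1 within days 2 to 4, 1 at an adjusted p of 0.01 and 0 at 2-fold (2 reported). At 8 h, lower genes numbered 5 at 0.01 and 0 at 2-fold (9 reported). Of all genes, 1520 and 216 were called in either direction, and 68 were lower at 2-fold. Higher genes at 8 h numbered 0 with the variance filter, which removes BARD1, FANCF and MUS81, 1 with equal array medians, within days 2 to 4, with only the groups compared or at 0.01, 0 at 2-fold, and 1 to 2 with each array left out. Within day 1, 108 of all genes fell by at least 2-fold at 8 h (68 reported). From 8 h to 24 h, 1 gene, ATM, was higher with the brightest probe set or within day 1, and 0 to 1 with each array left out (1 without 8 h replicate 5). At 2-fold 10 of the 29 genes were lower, and 248 of all genes were called in either direction, 161 of them lower. With the run as a replicate block, 25 genes were lower and 3 higher at 24 h, and 9 and 3 at 8 h. The block changed no call of a gene other than those given above. For the ratios, differences within runs cannot give an exact p below 0.125 over 4 runs or 0.0625 over 5, so 0 pairs passed at 24 h against either group. The number of pairs passing with each array left out was 8 to 9 at 24 h against untreated cells and 7 to 9 from 8 h to 24 h. No call changed direction. The cause of these differences was not tested.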
